A study of Homo sapiens with 2 samples.

Results

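The carcinoembryonic antigen-related cell adhesion molecules (CEACAMs) were examined in RNA-seq of TFK1 cells. The 5 genes described, CEACAM1, CEACAM5, CEACAM6, CEACAM7 and CEACAM19, were selected on their read counts in these libraries, out of 56638 genes in the deposited tables, and their values below are a description of that choice. TFK1 is an established human cholangiocarcinoma (CCA) cell line. 1 library, named here shMBD2, came from TFK1 cells with knockdown of MBD2 by a short hairpin RNA (shRNA), and the other, sh-NC, from cells with the negative control; both are labelled as having no further treatment. According to the study's methods, shRNAs were delivered by lentivirus from the pLKO.1 vector and cells that took up the vector were kept by drug selection; the labels do not say which MBD2 shRNA was sequenced. The comparison asks which transcripts differ once MBD2, a reader of methylated DNA, is reduced. With 1 library per condition there is no replicate and no test, and every interval given is a 95% interval that covers counting error only.

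CEACAM proteins belong to the immunoglobulin superfamily and join cells by binding to themselves or to other CEACAMs on a neighboring cell. CEACAM5 (CEA, the serum tumor marker), CEACAM6 and CEACAM7 are held in the membrane by a glycosylphosphatidylinositol (GPI) anchor and are typical of intestinal and other mucosal epithelia. CEACAM1 spans the membrane, and its long isoform carries inhibitory tyrosine motifs that recruit the phosphatases SHP-1 and SHP-2. CEACAM19 is a less studied transmembrane member.

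The genes lie in 3 places on the long arm of chromosome 19. In the coordinates of the deposited tables, which name no build, CEACAM7 (ENSG00000007306, minus strand) spans 42177235 to 42210895. CEACAM5 (ENSG00000105388, plus strand) spans 42212504 to 42233718, and CEACAM6 (ENSG00000086548, plus strand) follows 21.2 kb downstream, from 42254885 to 42276113. CEACAM1 (ENSG00000079385, minus strand) lies from 43011456 to 43065386 and CEACAM19 (ENSG00000186567, plus strand) from 45165545 to 45187631. The submitters' notes list GRCh38.p13, but these positions differ from those of the same genes in GENCODE 29 (GRCh38), so they are used here only for distances within the tables.

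The promoters of the clustered genes are close relatives of each other. They are shown with a hexamer, CACGTG, that is exact in CEACAM5 and CEACAM6 and varies in the other 2 windows. It was picked after the read counts were seen, so nothing is read from this split. The sequences are the 250 bases before the RefSeq start (GRCh38.p14), read on the strand of the gene: chr19:41708376-41708625 (plus) for CEACAM5, chr19:41755280-41755529 (plus) for CEACAM6, chr19:41688271-41688520 (minus) for CEACAM7 and chr19:42528482-42528731 (minus) for CEACAM1. Capitals mark the CACGTG hexamer of CEACAM5 and the bases aligned to it in the other 3 genes.
CEACAM5: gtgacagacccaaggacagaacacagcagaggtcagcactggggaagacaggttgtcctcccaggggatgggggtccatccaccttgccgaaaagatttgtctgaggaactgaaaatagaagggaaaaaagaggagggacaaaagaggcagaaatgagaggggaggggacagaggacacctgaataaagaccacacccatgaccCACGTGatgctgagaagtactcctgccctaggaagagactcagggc
CEACAM6: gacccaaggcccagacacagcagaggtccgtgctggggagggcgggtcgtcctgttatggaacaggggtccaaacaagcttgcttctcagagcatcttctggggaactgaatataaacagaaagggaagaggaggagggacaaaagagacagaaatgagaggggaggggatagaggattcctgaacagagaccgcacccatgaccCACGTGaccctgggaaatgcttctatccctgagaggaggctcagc
CEACAM7: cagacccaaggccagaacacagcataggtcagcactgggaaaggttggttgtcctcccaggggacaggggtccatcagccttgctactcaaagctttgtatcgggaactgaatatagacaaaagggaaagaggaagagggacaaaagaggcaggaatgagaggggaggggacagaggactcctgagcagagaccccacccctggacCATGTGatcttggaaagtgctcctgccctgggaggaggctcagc
CEACAM1: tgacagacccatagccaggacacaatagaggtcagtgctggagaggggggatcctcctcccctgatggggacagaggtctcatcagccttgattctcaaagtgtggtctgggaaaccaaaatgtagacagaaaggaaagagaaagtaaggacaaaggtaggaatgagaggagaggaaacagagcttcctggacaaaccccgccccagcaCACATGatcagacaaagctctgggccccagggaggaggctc

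CACGTG, a form of the E-box that the transcription factors USF1 and USF2 are known to bind, starts at -46 from the RefSeq start in CEACAM5 and at -45 in CEACAM6. The aligned bases are CATGTG in CEACAM7 and CACATG in CEACAM1, which also fit the general E-box pattern CANNTG, where N is any base. CACGTG is its own reverse complement, so a search of both strands is 1 search. It occurred in 2 of the 11 CEACAM windows in the RefSeq table, those of CEACAM5 and CEACAM6, and in 6.34% of all 35116 windows of this length. CEACAM5 and CEACAM7 were the more alike pair, identical at 80.5% of alignment columns, against 73.6% for CEACAM5 and CEACAM6. CEACAM1 was identical to CEACAM5 at 64.4%. The motif GAAANNGAAA, the core of an interferon-stimulated response element, was searched on both strands and was found in CEACAM1 alone among the CEACAM windows, against 3.02% of all windows; it does not overlap the hexamer. All 4 windows are poor in CpG, the dinucleotide that MBD2 reads when methylated, with 2 in CEACAM5, 5 in CEACAM6, 1 in CEACAM7 and 1 in CEACAM1 against a median of 11 over all windows. The motifs were chosen after the read counts were seen, and methylation and factor binding were not measured here. No window of CEACAM19 was used.

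The counts, which the authors deposited without normalization, summed to 14728814 in shMBD2 and 14467406 in sh-NC. MBD2 itself had 365 reads in shMBD2 and 1013 in sh-NC, or 15.6 and 44.6 TPM (the deposited level, scaled for transcript length and library size). Its log2FC, the log2 ratio of shMBD2 over sh-NC after TMM scaling and a prior of 0.5 reads, was -1.48 (interval -1.66 to -1.31), so the targeted gene was lower in the library labelled as its knockdown. Keratins of biliary epithelium were abundant, with KRT7 at 1160 TPM in shMBD2 and 1327 in sh-NC. KRT19 had 119 and 70 reads and CFTR, a channel of bile duct cells, had 6 and 11. The 9 biliary markers summed to 4808 TPM in shMBD2 and 6030 in sh-NC, most of it KRT8 at 3006 and 3890. None of the 9 lay past a log2FC of 1 or -1, but 7 were below 0, with a median of -0.36. Over all genes with at least 10 reads, 5.48% lay above 1 and 5.07% below -1. Few would thus be past these values in a list of this size. Of 10 granulocyte markers, listed because granulocytes carry CEACAMs, 4 were at 0 in both libraries, MPO and CEACAM8 among them, and the highest count was the 11 reads of ELANE in sh-NC.

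CEACAM6 was the leading transcript, and CEACAM5 and CEACAM6 were the members with much lower levels in shMBD2. CEACAM5 had 177 reads in sh-NC and 5 in shMBD2, and CEACAM6 had 1485 and 374. CEACAM19 had 244 and 200, CEACAM1 had 90 and 126, and CEACAM7 had 6 and 11. In RNA from whole cultures, fewer cells with a transcript and less of it per cell cannot be told apart. Of the 5 members, all with at least 10 reads over both libraries, 2 had a log2FC below -1 and 0 had a log2FC above 1. Among all 17545 genes with at least 10 reads, 5.07% lay below -1 and 5.48% above 1; since the members were chosen from this comparison, nothing is read from the difference in these shares.

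**Figure D1:**
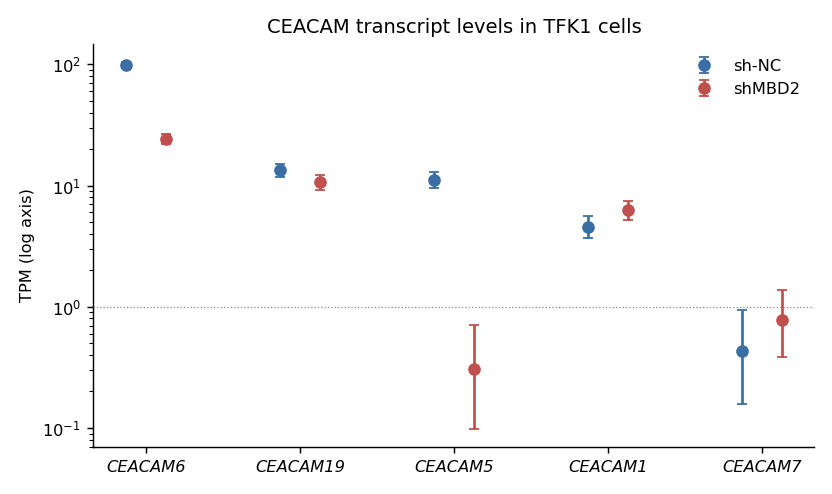
Level of each CEACAM gene in TPM on a log axis, with 1 point per library (blue, sh-NC; red, shMBD2) and exact Poisson 95% intervals of the read count. CEACAM5 and CEACAM6 are lower in shMBD2, and CEACAM7 is below 1 TPM (dotted line) in both libraries.

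In TPM, which corrects for transcript length and allows levels of different genes to be set side by side, the order in sh-NC was CEACAM6 at 98.7 (interval 93.7 to 104), CEACAM19 at 13.4 (11.7 to 15.1), CEACAM5 at 11.1 (9.48 to 12.8), CEACAM1 at 4.59 (3.69 to 5.64) and CEACAM7 at 0.433 (0.159 to 0.941). The intervals of CEACAM19 and CEACAM5 overlapped and those of all other neighbors in this order did not. In shMBD2 the order was CEACAM6 at 24.2 (21.8 to 26.8), CEACAM19 at 10.7 (9.24 to 12.3), CEACAM1 at 6.26 (5.22 to 7.46), CEACAM7 at 0.773 (0.386 to 1.38) and CEACAM5 at 0.304 (0.0988 to 0.710), where only the intervals of CEACAM7 and CEACAM5 overlapped. CEACAM5 thus went from the middle of the order to its end. Of the TPM summed over the 5 genes, CEACAM6 held 77.0% in sh-NC and 57.4% in shMBD2. CEACAM5 held 8.63% and 0.720%, while CEACAM19 went from 10.4% to 25.3% and CEACAM1 from 3.58% to 14.8%. In sh-NC, 8.62% of the tested genes were at or above the TPM of CEACAM6, and in shMBD2 33.9% were.

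CEACAM5, the carcinoembryonic antigen itself, had a log2FC of -5.02 (interval -6.80 to -3.90), which is 32.5-fold lower in shMBD2. Without the prior of 0.5 reads, which matters at so low a count, its scaled count in shMBD2 was 2.81% of that in sh-NC. Among the 10917 genes with at least 100 reads in a library, 0 had a more negative log2FC, and among all 17545 it ranked 2 from the most negative. The 5 remaining reads set the width of the interval, and with 1 TPM added to both libraries the log2FC was -3.21.

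CEACAM6 (NCA-50/90), a close relative of CEACAM5 that is also GPI-anchored, had a log2FC of -2.0 (interval -2.17 to -1.83), or 3.99-fold lower in shMBD2. Its count there was 25.0% of that in sh-NC, against 35.8% for the targeted MBD2. Among the genes with at least 100 reads in a library, 6 had a more negative log2FC, CEACAM5 being 1 of them. CEACAM6 did not follow CEACAM5 in full. In sh-NC there were 8.39 reads of CEACAM6 for each of CEACAM5, and in shMBD2 there were 74.8. The ratio of these ratios, which needs no scaling of the libraries, was 8.91 (exact conditional interval 3.71 to 28.0).

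**Figure D2:**
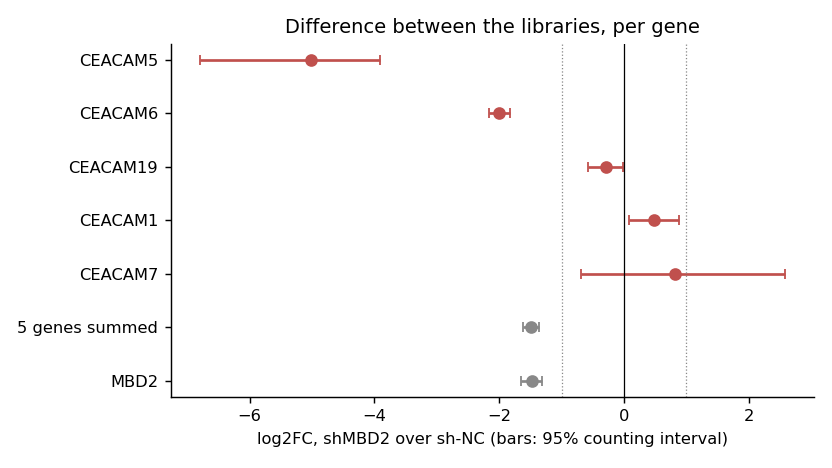
Log2FC of shMBD2 over sh-NC for each CEACAM gene (red) and for the 5 genes summed and MBD2 (gray), with 95% counting intervals and dotted lines at -1 and 1. CEACAM5 and CEACAM6 lie wholly below -1, CEACAM19 and CEACAM1 lie near 0 on opposite sides, and the interval of CEACAM7 holds 0.

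CEACAM1, the inhibitory member, was somewhat higher in shMBD2, with a log2FC of 0.47 (interval 0.07 to 0.88). A log2FC at least as high was seen in 13.5% of all tested genes, which include many with low counts. Among the 10917 genes with at least 100 reads in a library, 676 had a higher log2FC than CEACAM1. Against CEACAM6 the change in proportion was large, since there were 0.0606 reads of CEACAM1 for each of CEACAM6 in sh-NC and 0.337 in shMBD2, a ratio of ratios of 5.55 (interval 4.10 to 7.54). The table gives 1 count per gene, so the long and short isoforms of CEACAM1 could not be told apart.

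CEACAM19 had a log2FC of -0.30 (interval -0.57 to -0.02), inside the range of most genes, since 74.0% of the tested genes lay within 0.5 of 0. CEACAM7 was too low to measure: its 6 and 11 reads gave a log2FC of 0.81 with an interval from -0.70 to 2.59, which holds a lower as well as a higher level in shMBD2. Summed over the 5 genes, the reads went from 2002 in sh-NC to 716 in shMBD2, which gave a log2FC of -1.49 (interval -1.62 to -1.37). This sum is dominated by CEACAM6, which alone gave 1485 and 374 of these reads.

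**Figure D3:**
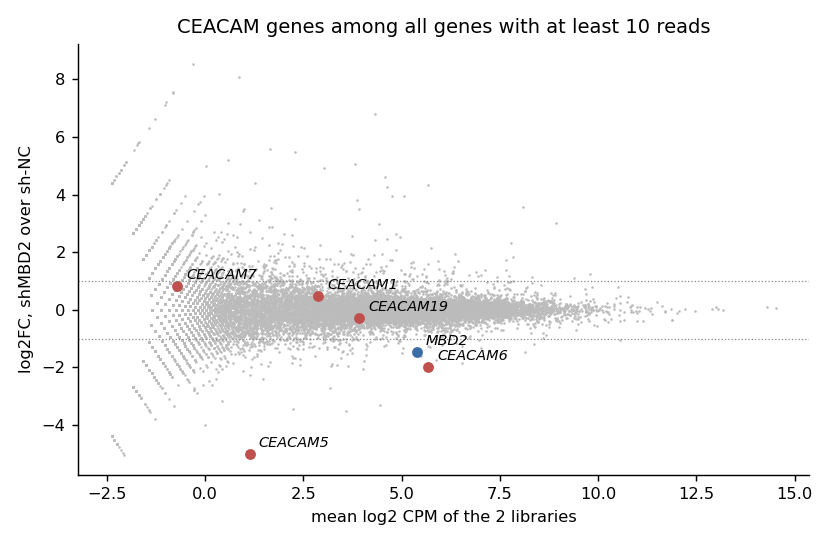
Log2FC of shMBD2 over sh-NC against the mean log2 CPM (counts scaled to library size) of the 2 libraries for the 17545 genes with at least 10 reads (gray), with the CEACAM genes in red and MBD2 in blue. CEACAM5 stands at the lower edge of the plot at -5.02, CEACAM6 at -2.0 lies below MBD2, and CEACAM1, CEACAM7 and CEACAM19 lie between the dotted lines at -1 and 1.

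The rest of the family was near silent in both libraries. The tables hold 30 further CEACAM and pregnancy-specific glycoprotein (PSG) genes and pseudogenes, PSGs being the placental branch of the family. Of these, 20 were at 0 in both libraries and 1, CEACAM16, a protein of the inner ear, reached 10 reads with 6 in each library. Together they had 14 reads in shMBD2 and 25 in sh-NC. CEACAM3, CEACAM4 and CEACAM8, which are among the family members known from granulocytes, were at 0 throughout, which allows up to 3 reads of each per library.

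Because CEACAM genes are near-identical in places, the transcripts of GENCODE 29 were searched for stretches that a gene shares with another gene. The read length is not given in the sources used here, so several lengths were tried. Of all stretches of 100 bases in CEACAM5 transcripts, 12.6% also occur in another gene, and for CEACAM6 it was 1.73%, CEACAM1 0.301% and CEACAM19 0.398%. For CEACAM7 there were 0. At 100 bases, CEACAM5 and CEACAM6 shared these stretches only with AC243967.1 (ENSG00000267881), a joined locus that the tables list as CEA from 42212531 to 42265190, across most of CEACAM5 and the first part of CEACAM6, with 0 reads in either library. At 50 bases, 16.3% of CEACAM5 and 6.99% of CEACAM6 stretches were shared, and CEACAM5 and CEACAM6 then shared some with each other. Reads of these stretches could be split or dropped in the counting, which leaves single values uncertain. Summed over CEACAM5, CEACAM6 and CEACAM7, the reads were 1668 in sh-NC and 390 in shMBD2, a log2FC of -2.10 (interval -2.27 to -1.95).

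Other overlaps were small in reads or lay with CEACAM19. LIPE-AS1, on the opposite strand, covers the whole of CEACAM1 and had 8 reads in shMBD2 and 6 in sh-NC. CEACAM19 shares its first 1306 bases with the end of PVR on the same strand, the poliovirus receptor, which had 2116 and 1867 reads. CTB-171A8.1, on the opposite strand, covers all of CEACAM19 and had 24 reads in shMBD2 and 48 in sh-NC, or -0.99 on the log2FC scale (interval -1.78 to -0.27). Whether counting used strand is not given in the sources used here, so reads of this antisense gene and of CEACAM19 cannot be told apart.

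Genes around the members were listed next. Within 250 kb of CEACAM5, CEACAM6 or CEACAM7, 7 other genes had at least 10 reads. Their log2FC ranged from -0.28 to 1.10 with a median of -0.02, and 0 of them were below -1. RPS19, a ribosomal protein gene 87.9 kb beyond CEACAM6, had 9584 reads in shMBD2 and 9658 in sh-NC, a log2FC of -0.02. RABAC1, a Rab acceptor, was at -0.28. GRIK5, a glutamate receptor subunit, was at 1.10 with 20 and 9 reads and an interval from -0.06 to 2.46. Around CEACAM19, 13 genes had enough reads, with a median log2FC of 0.22 and a range from -0.99 to 0.63, and BCL3, a partner of NF-kB, was at 0.22. Around CEACAM1, 8 genes ranged from -0.76 to 0.38. Over all 28 neighbors, 1 was above 1 and 0 were below -1. Among all tested genes 5.48% lay above 1 and 5.07% below -1, so few would be in a set of this size. Nothing particular to these loci is read from the counts.

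**Figure D4:**
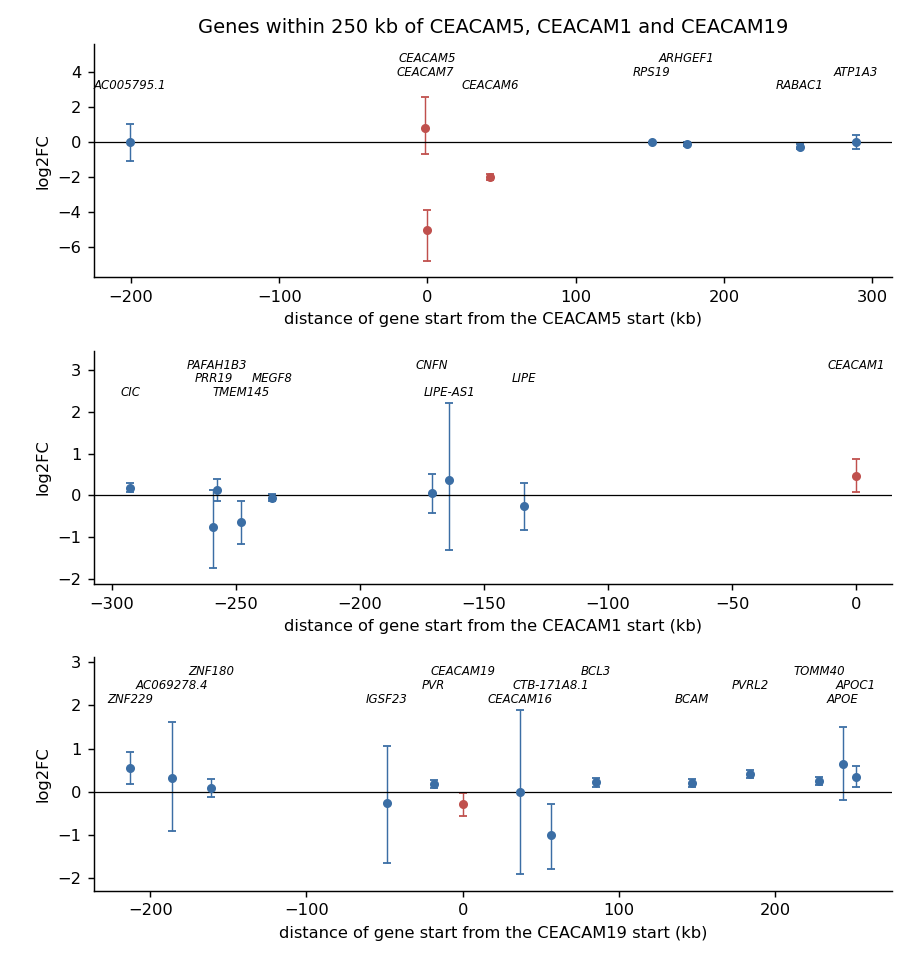
Log2FC of shMBD2 over sh-NC, with 95% counting intervals, for genes with at least 10 reads within 250 kb of CEACAM5 (top), CEACAM1 (middle) and CEACAM19 (bottom), plotted by the distance of their start from the start of that gene in kb. CEACAM genes that the report describes are red and all others blue; CEACAM5 and CEACAM6 are the only points below -1.

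The genes whose TPM in the 2 libraries were nearest to those of each member (Euclidean distance of log2 of TPM plus 0.1, among genes with at least 100 reads in a library) were then listed. CEACAM5 had no near match, as the nearest gene, PLCXD3, had a distance of 1.16, with 20 reads in shMBD2 and 224 in sh-NC. FCGBP and BCAS1 came next, at 2.35 and 2.39, with a log2FC of -1.58 and -1.95. CEACAM6 was nearest to UPK1B at 0.447, INSL4 at 0.486 and FGG at 0.497, with a log2FC of -1.36, -1.61 and -1.50. For CEACAM1 the nearest were PLEKHM3, MCTP1 and AHRR, all within 0.0595, and for CEACAM19 SLC19A2, CRBN and ARSK, all within 0.0234. Each likeness rests on 2 libraries. Since genes were matched on their levels in both, a similar log2FC among near matches follows from the matching.

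Genes known to bear on CEACAM expression gave a mixed picture. Of 24 such regulators, 23 had at least 10 reads, 3 of them with a log2FC above 1 and 1 below -1. Their median was -0.02 against -0.01 over all tested genes, of which 5.48% lay above 1 and 5.07% below -1. Nothing particular to the regulators is read from these counts. USF1 had 548 reads in shMBD2 and 466 in sh-NC, a log2FC of 0.22, and USF2 had 1109 and 1331, at -0.27. IRF1, the interferon regulatory factor known to act on the CEACAM1 promoter, had 520 and 297 reads and a log2FC of 0.80. The 3 above 1 were NF-kB subunits, with RELB at 2.57, NFKB2 at 1.59 and NFKB1 at 1.17. HNF4A, a factor of hepatic and intestinal epithelium, was the gene below -1, with 309 and 631 reads and a log2FC of -1.04 (interval -1.24 to -0.84). SOX9, a biliary and intestinal factor, was at -0.73. CDX2, the intestinal homeobox factor, had 8 and 7 reads, and CDX1 had 0 in both libraries. That any of these values has a part in the levels of the CEACAM genes was not tested.

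Markers of intestinal epithelium, the tissue where CEACAM5, CEACAM6 and CEACAM7 are best known, were mostly at 0 or under 20 reads, and the 2 with more, CDH17 and KRT20, were lower in shMBD2 like CEACAM5. Their summed level was 8.09 TPM in shMBD2 and 19.4 TPM in sh-NC. Of the 9 markers, 5 had at least 10 reads and 2 of these were below -1. Over all tested genes 5.07% lay below -1 and 5.48% above 1. The marker lists were chosen with earlier results of these data known, so nothing is read from such counts. KRT20 had 11 reads in shMBD2 and 39 in sh-NC, a log2FC of -1.79, and CDH17, the liver-intestine cadherin, had 98 and 271, at -1.47. VIL1 at -0.26 and LGALS4 at 0.21 had between 12 and 18 reads, and GPA33, FABP1 and SI were at 0 in both libraries. Markers of other cell types also differed between the libraries. The 7 leukocyte markers summed to 19.8 TPM in shMBD2 and 13.7 TPM in sh-NC, most of it CD14 with 152 and 126 reads and a log2FC of 0.26 (interval -0.09 to 0.61). CORO1A, at 1.53 with 56 and 19 reads, and LAPTM5, at 3.07 with 29 and 3, were above 1, with CD3E and CD52 at 0 in both libraries and PTPRC at 0 and 1 reads. The 6 fibroblast markers summed to 8.42 and 3.98 TPM, most of it COL1A1 at a log2FC of 1.30, while LUM had 5 and 6 reads and COL1A2 had 0 and 1. The 6 hepatocyte markers summed to 44.2 and 143 TPM, nearly all of it FGB, a fibrinogen chain, at a log2FC of -1.74. SERPINA1, the only other hepatocyte marker with at least 10 reads, lay in the opposite direction at 1.77 with 39 and 11 reads, and APOB and TTR were at 0 in both libraries. The part of any of these marker levels in the values of the CEACAM genes was not tested.

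All 29 genes of GPI anchor synthesis, attachment and cleavage with at least 10 reads, out of 30, lay between -0.38 and 0.26, with a median of -0.04. PIGA, which starts anchor synthesis, was at -0.14, and the transamidase subunits GPAA1, PIGK and PIGT were at 0.20, -0.11 and -0.02. Among 21 other GPI-anchored proteins with enough reads, 3 were above 1 and 0 below -1. EFNA1, an ephrin, had 594 reads in shMBD2 and 207 in sh-NC, a log2FC of 1.51, and the other two, FOLR1 and MSLN, had at most 22 reads in either library. PLAUR, the urokinase receptor, was at 0.93 and TFPI at -0.76. GPC4 was the lowest of the 21 at -0.97. Over all tested genes 5.48% were above 1 and 5.07% below -1, so nothing particular to these proteins is read from the counts.

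Of 19 signaling partners of CEACAM1, 17 had at least 10 reads, with a median log2FC of 0.01, and 0 were past 1 or -1. With 5.48% of all tested genes above 1 and 5.07% below -1, few would be in a list of this size, and nothing particular to the partners is read from this count. PTPN6 and PTPN11, which encode SHP-1 and SHP-2, were at 0.17 and 0.10. S100A10 was the lowest at -0.50 and FYN the highest at 0.48. HAVCR2 (TIM-3), a proposed CEACAM1 ligand on lymphocytes, had 5 reads in shMBD2 and 0 in sh-NC. Of the splicing factors known to set the CEACAM1 isoforms, HNRNPL, HNRNPM, PTBP1 and HNRNPA1 lay between 0.01 and 0.13, while ESRP1 and ESRP2 had at most 15 reads in either library.

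Other adhesion molecules of epithelia differed in both directions. Of 18 genes with at least 10 reads, 12 had a log2FC above 0 and 6 below, with a median of 0.25, and 3 were above 1 and 1, CDH17, below -1. Over all tested genes the median was -0.01, with 5.48% above 1 and 5.07% below -1. Nothing particular to adhesion genes is read from the counts. ICAM1, the leukocyte integrin ligand, had 187 reads in shMBD2 and 0 in sh-NC, at least 62.0-fold higher against a floor of 3 reads in sh-NC. VCAM1, with 92 and 0 reads, was at least 30.5-fold higher on the same floor. NECTIN4 (PVRL4 in the tables), the third gene above 1, had 30 and 14 reads and a log2FC of 1.06, which was 1 or less under some alternatives. CDH1 (E-cadherin) had 2342 and 1762 reads and a log2FC of 0.40, EPCAM was at -0.55 and ALCAM at -0.58.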

How the data were processed

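RNA-seq was deposited for 2 TFK1 libraries, sh-NC and shMBD2, grouped by their genotype labels. Libraries were made from total RNA with the VAHTS Universal V6 kit. The authors deposited unnormalized gene counts and, in a second table, TPM; the submitters' processing notes name fastp, HISAT2 2.1.0, featureCounts and DESeq 1.18.1 and the build GRCh38.p13, and strandedness and read length are not given in the sources used here. Of 63723 lines, 46 hold no gene and were dropped. A symbol with several Ensembl identifiers has the same values on each of them (apart from symbols stored as dates), so repeats with equal values were merged, leaving 56638 genes. The tables hold 0 columns of other samples.

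Library sizes came from TMM (edgeR 4.0.16, R 4.3.3). Log2FC used a prior of 0.5 reads scaled by library size, and genes needed 10 reads over both libraries. Intervals (scipy 1.17.1), which use no prior, are Clopper-Pearson for log2FC, exact Poisson for levels and exact conditional for ratios between genes. Lists are described by counts and medians, with no test. The members and gene lists were chosen with earlier results of these data known. Named genes are the members, MBD2, neighbors within 250 kb, the 3 genes most alike to each member, and from each list those with the largest log2FC among genes with at least 100 reads in a library or with a role described; other list genes were named after their values were seen. Promoter windows were aligned with Biopython 1.88. The calculation was checked on simulated counts. Scaling was also tried with DESeq2 1.42.0, by upper quartile and by total, and further alternatives were TPM plus 0.1 or 1, priors of 2 and 0.1, and filters of at least 1 or 100 reads.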

Additional observations from a re-analysis of the deposited data

How the results depend on the processing

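Under the 7 alternatives listed in the processing summary that apply to single genes, and with all deposited rows kept (added after seeing the data), every member and MBD2 kept its direction. Log2FC ranged from -5.13 to -3.21 for CEACAM5, from -2.02 to -1.98 for CEACAM6, from 0.38 to 0.48 for CEACAM1, from -0.32 to -0.29 for CEACAM19, from 0.31 to 0.85 for CEACAM7 and from -1.50 to -1.45 for MBD2. The value of -3.21 for CEACAM5 came with log2 of TPM plus 1 and lay outside its counting interval; a pseudocount of 1 TPM exceeds the 0.304 TPM of CEACAM5 in shMBD2. The summed log2FC of -1.49 was -1.78 without CEACAM19 and -2.10 without CEACAM19 and CEACAM1, sums also added after seeing the data. Against 961 genes above 1 and 890 below -1, there were 374 and 340 with TPM plus 1, 4523 and 4303 with at least 1 read, and 213 and 127 with at least 100 reads. ESRP1, at 1.04 with 15 and 7 reads, and NECTIN4, at 1.06 with 30 and 14, were no longer above 1 with either TPM pseudocount or a prior of 2, which took the adhesion genes past 1 or -1 from 4 to 3. MSLN was no longer above 1 with TPM plus 1, which took the other GPI-anchored proteins from 3 to 2. No paired analysis was possible because shMBD2 and sh-NC were sequenced once each, and for the same reason no library could be left out. The variation between cultures was not measured, and a second shRNA was not analysed here. Under 20 reads, as for CEACAM7, counting error alone spans several-fold.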
